A study of Mus musculus with 58 samples.

Results

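Cdkn1a and Eda2r, both known targets of the tumour suppressor p53, were followed across the quadriceps muscle of 4 mutant groups of mice together with 8 further p53 targets: Mdm2, Ccng1, Bax, Btg2, Gadd45a, Trp53inp1, Sesn1 and Perp. The list was written by name. Cdkn1a and Eda2r were picked on their rise in these same mice, so their values are a description and carry no test, while the other genes were tested. Of the 10 genes, 9 had at least 1 probe set named for them alone, out of 18193 genes named on the arrays; they held 19 probe sets. Bax was not analysed here, which leaves 7 genes that were not chosen by their values. The list as a whole was still written with earlier results of these data known.

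The mice were 34 untreated males in 3 experiments. Array intensities differed in level between experiments, and whether the authors scaled the experiments together is not given in the sources used here, so levels are compared only within an experiment. Experiment 1 held 6 mice of transgenic line 20b, 6 of transgenic line 41 and 6 FVB wild-type mice, all on an FVB background and 6 months old. Both lines carry the transgene labelled CUGexp, which makes an RNA with an expanded CUG repeat; in mice of this kind it is driven in skeletal muscle by the human skeletal actin gene, and such RNA binds and withdraws muscleblind proteins such as MBNL1. Experiment 2 held 3 Clcn1-null mice, which lack the muscle chloride channel and have myotonia, and 3 wild-type mice of their BALB background. Experiment 3 held 5 Mbnl1-null and 5 wild-type mice, all FVB. The mice of experiments 2 and 3 were 3 months old, and both deletions were constitutive. Values are intensities on the log2 scale, on which 1 unit is a doubling; a value under 5, an intensity of 32, was treated as too dim to measure. Mice with the same label are taken as separate animals, and nothing in the labels says more about their source.

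p53 is a transcription factor that is kept low in unstressed cells and is stabilised by DNA damage and other stress. It binds paired copies of a short half-site and switches on genes that stop the cell cycle (Cdkn1a, which encodes the inhibitor p21), repair DNA, limit growth and oxidants (Sesn1), or promote cell death (Bax, Perp), together with Mdm2, which sends p53 itself for degradation. Eda2r encodes a receptor of the tumour necrosis factor family that binds the A2 form of ectodysplasin. Muscle fibres are post-mitotic, and Cdkn1a is known in them as a gene that also responds to MyoD during differentiation and to loss of the nerve.

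RefSeq promoters (build GRCm38.p6, from 250 bases before to 50 after a start) were found for 8 of the 10 genes; Trp53inp1 and Perp had no entry. They were searched on both strands for the p53 half-site, which reads purines, a C, A or T letters, a G and pyrimidines. Of 32851 mouse promoters of that length, 8.36% held 1 or more. The bases before the upstream start of Cdkn1a (chr17:29090729-29090978, plus strand) and before the start of Eda2r (chrX:97377210-97377459, minus strand) are shown because these genes had the largest differences. Capitals mark the p53 half-site in Cdkn1a and the TATA box, TATAAA, in Eda2r.
Cdkn1a: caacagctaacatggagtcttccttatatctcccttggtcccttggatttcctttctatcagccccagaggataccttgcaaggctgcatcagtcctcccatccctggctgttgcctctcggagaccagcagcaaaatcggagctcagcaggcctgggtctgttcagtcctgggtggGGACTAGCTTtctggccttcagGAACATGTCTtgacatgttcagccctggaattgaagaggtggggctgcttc
Eda2r: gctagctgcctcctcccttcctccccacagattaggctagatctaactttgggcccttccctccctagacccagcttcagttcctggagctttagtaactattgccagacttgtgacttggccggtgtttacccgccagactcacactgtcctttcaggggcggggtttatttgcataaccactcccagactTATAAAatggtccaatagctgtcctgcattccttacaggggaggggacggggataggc
Cdkn1a held 2 matches before this start, beginning 73 and 51 bases from it. The 10 bases that follow the nearer match, tgacatgttc, depart from the half-site at 1 base, so the pair is close to a full p53 site. The window at the other listed start of Cdkn1a (chr17:29093519-29093818) held none. The window of Eda2r held no half-site and 1 TATA box, beginning 58 bases before the start; TATAAA was found on either strand in 13.6% of promoters. No match says only that these letters are not in this window.

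Half-sites of the other genes are shown, with 10 bases on each side, for comparison with the Cdkn1a promoter. They lie in Mdm2 (chr10:117710925-117710954, minus strand), Ccng1 (chr11:40755452-40755481, minus strand), Gadd45a (chr6:67037428-67037457, minus strand) and at the second start of Sesn1 (chr10:41887256-41887285, plus strand).
Mdm2: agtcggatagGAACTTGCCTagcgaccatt
Ccng1: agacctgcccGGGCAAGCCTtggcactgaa
Gadd45a: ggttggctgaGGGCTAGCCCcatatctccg
Sesn1: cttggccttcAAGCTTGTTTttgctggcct
Each of these 4 windows held 1 match, and so did that of Bax; Btg2 and the first start of Sesn1 held none. The matches began 186 bases before the start in Mdm2, 185 in Ccng1, 40 in Gadd45a and 173 in Sesn1. The 10 bases after the match departed from a second half-site at 5 bases in Mdm2, 6 in Ccng1, 6 in Gadd45a and 3 in Sesn1. Only the bases after a match were scored in this way. The 10 bases before the Ccng1 match, agacctgccc, depart from the half-site at 1 base. That pair is therefore also close to a full p53 site. A match is a stretch of letters and was not shown here to be bound.

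Within groups, mice correlated at 0.983 to 0.998 over all probe sets. Probe sets that reached an intensity of 32 made up 70.35 to 72.28% of the first array type of experiment 1 and 49.32 to 50.97% of its second. They made up 35.7 to 36.38% of the single array type of experiment 3, which holds the probe sets of both. The number of mice per group limits the precision. Clcn1 was lower in its null mice (log2 9.30 to 9.54 against 10.25 to 11.27). Mbnl1 was lower at its brightest probe set (12.90 to 13.20 against 13.77 to 13.89); whether either probe set lies in the deleted part is not known here. Summed intensities of 6 muscle fibre markers lay between 339800 and 579800 in every mouse. Wild-type mice 1 and 2 of experiment 1 stood apart in 4 measured adipocyte markers, summed to 88910 and 92880 against 29820 to 43990 in the other wild-type mice of that experiment. In bulk muscle, fewer cells of a type and less RNA per cell cannot be told apart.

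Cdkn1a was higher than in wild type in both repeat lines and in Mbnl1-null muscle, while Clcn1-null mice overlapped their wild type. At its brighter probe set (1424638_at), the lowest, median and highest mice of line 20b had 10.49, 10.83 and 12.86. In line 41 these were 10.41, 10.65 and 11.35, and in their wild-type mice 9.32, 9.64 and 10.09. All 6 mice of each line lay above all 6 wild-type mice, while the lines overlapped each other. The mean difference from wild type was 1.50 (SE 0.31) in line 20b, a 2.83-fold difference, and 1.13 (SE 0.31) or 2.19-fold in line 41, with the same wild-type mice in both. Mouse 3 of line 20b, at 12.86, stood apart from the next highest mouse, at 11.34; without it the line 20b difference was 1.16. The dimmer probe set (1421679_a_at) had this mouse at 8.98 and the other 5 between 5.62 and 6.13, and differed by 1.25 (SE 0.46) in line 20b and 0.71 in line 41. There 3 of 6 line 20b mice and 2 of 6 line 41 mice lay above all wild-type mice. The wild-type mean at this dimmer probe set was 5.09, close to the limit of 5, so its differences give no firm size. With 1 mouse left out, the line 20b difference there was as low as 0.72.

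The 5 Mbnl1-null mice had Cdkn1a values of 11.43, 9.92, 9.84, 9.79 and 10.24. Their wild-type mice had 8.67, 8.59, 7.64, 7.48 and 7.90. The groups did not overlap, and the difference was 2.19 (SE 0.34), which is 4.56-fold. Without Mbnl1-null mouse 1, the highest, it was 1.89. The dimmer probe set was under an intensity of 32 in all 5 wild-type mice and in 4 of 5 null mice, so it gives no fold. Clcn1-null mice had 12.08, 12.77 and 11.70 against 11.48, 12.48 and 12.21 in BALB wild-type mice, which overlap, with a difference of 0.13 (SE 0.37). That difference lay between -0.17 and 0.37 when 1 mouse at a time was left out.

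Eda2r, measured by 1 probe set (1440085_at), differed more than Cdkn1a in the same 3 groups. Its lowest, median and highest values were 13.56, 13.64 and 14.35 in line 20b. They were 12.35, 12.89 and 13.45 in line 41 and 10.17, 10.52 and 10.76 in wild-type mice. No 2 of these groups overlapped, in the order wild type, line 41, line 20b. Line 20b was 3.28 (SE 0.16) above wild type, or 9.74-fold, and line 41 was 2.36 (SE 0.16) above it, or 5.14-fold. The lines differed from each other by 0.92 (SE 0.16).

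Mbnl1-null mice had Eda2r values of 9.73, 10.92, 10.70, 10.78 and 10.10. Wild-type values were 7.82, 5.67, 6.11, 6.74 and 6.06, all lower. The difference was 3.96 (SE 0.38), or 15.6-fold. Mbnl1-null mouse 1, the highest for Cdkn1a, was the lowest for Eda2r. Clcn1-null mice had 11.59, 11.25 and 9.57 against 10.29, 11.38 and 11.33 in BALB wild-type mice. These overlap; the difference of -0.19 (SE 0.60) took either sign with 1 mouse left out (-0.59 to 0.43), and was 0.43 without Clcn1-null mouse 3.

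**Figure D1:**
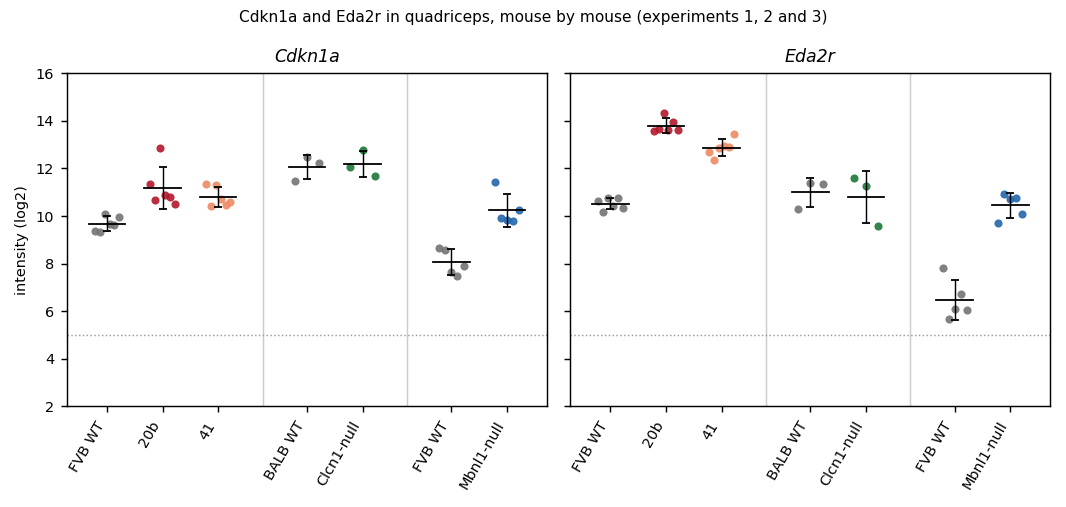
Log2 intensity of Cdkn1a and Eda2r at their leading probe sets in each mouse (points), with group mean (bar) and SD (whisker), by group within experiments 1, 2 and 3 (separated by grey lines); the dotted line marks an intensity of 32. Mice of lines 20b and 41 and Mbnl1-null mice lie above all of their wild-type mice for both genes, and Clcn1-null mice overlap theirs.

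The genes whose values ran most like those of Cdkn1a over the 18 mice of experiment 1 were Kank1 (Pearson r 0.922), Rrp12 (0.918), Pacsin3 (0.901), Tubb6 (0.900) and Panx1 (0.888), among 12954 genes compared. For Eda2r they were Cilp (0.989), Arpp19 (0.982), Mpzl3 (0.978), Plp2 (0.973) and Plekho1 (0.972). Cdkn1a and Eda2r had an r of 0.806 with each other, which placed Eda2r 70th for Cdkn1a and Cdkn1a 300th for Eda2r. Of the other genes on the list, Sesn1 came nearest to Eda2r (r 0.772) and to Cdkn1a (0.527). Ccng1 ran the other way, at -0.791 with Eda2r and -0.608 with Cdkn1a. The points share 3 groups, arrays and scaling, so these values describe a pattern and were not tested.

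The 7 genes not picked by their values moved in no common direction. In line 20b, limma called 1 of 7 higher (Sesn1) and 2 lower (Mdm2 and Ccng1), beside 8.71% of all tested genes called higher and 10.2% lower. In line 41 it called 1 higher (Gadd45a; 3.74% of all genes) and 1 lower (Ccng1; 5.19%). Between line 20b and line 41 it called 1 higher in line 20b (Sesn1; 3.5%) and 0 lower (2.33%). In Clcn1-null muscle 6 genes were tested, of which 0 were called higher (1.96%) and 1 lower (Ccng1; 2.88%); Perp was too dim there. In Mbnl1-null muscle 2 of 7 were called higher (Sesn1 and Perp; 8.01%) and 0 lower (8.11%). At an unadjusted p under 0.05 in limma, 1 gene was higher and 3 lower in Clcn1-null muscle, 3 higher and 1 lower in Mbnl1-null muscle, and 2 higher and 1 lower in line 20b than in line 41. In line 20b against wild type it was 1 higher and 2 lower, as it was in line 41. The median log2 change of the 7 genes was 0.06 for line 20b (-0.013 over all tested genes), 0.12 for line 41 (-0.017), 0.08 between the lines (0.0073) and 0.32 for Mbnl1-null muscle (-0.0052). That of the 6 genes tested in Clcn1-null muscle was -0.19 (0.016 over all tested genes). Lines 20b and 41 share their wild-type mice, so a call made in both is not repeated evidence.

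**Figure D2:**
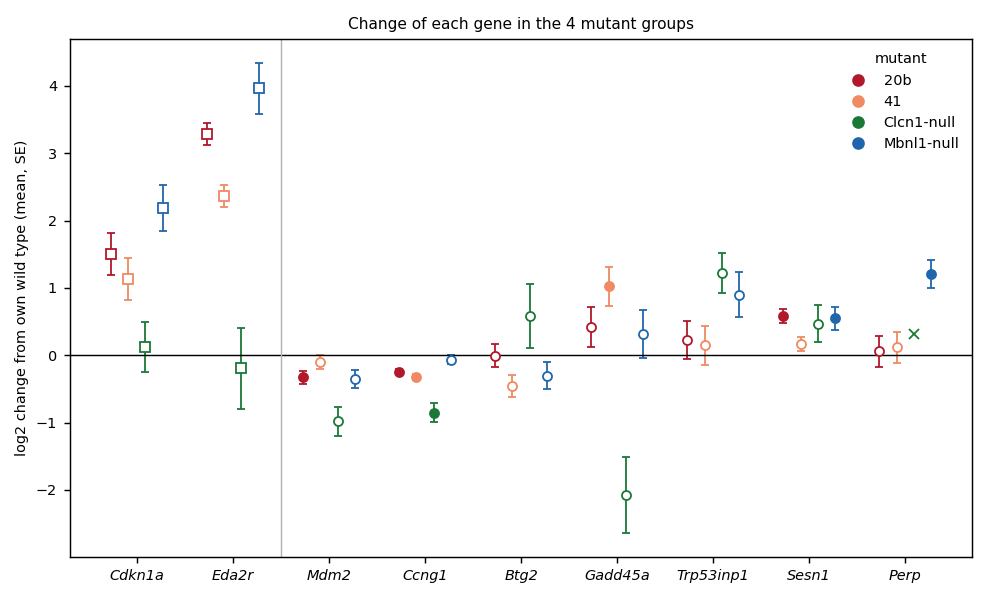
Mean log2 change (points) and SE (whiskers) from the wild type of the same experiment for 9 genes in the 4 mutant groups. Squares are Cdkn1a and Eda2r, which were picked by their rise and not tested; filled circles passed an adjusted p of 0.05, open circles did not, and the cross (Perp in Clcn1-null) was too dim to test. Cdkn1a and Eda2r stand above 1 in 3 groups, while Mdm2 and Ccng1 lie at or below 0.

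Mdm2, whose product is the ubiquitin ligase for p53, fell in line 20b and was called in no other group at its leading probe set (1423605_a_at). The lowest, median and highest values were 11.37, 11.66 and 11.90 in line 20b, against 11.65, 12.02 and 12.16 in wild-type mice. Only 3 of the 6 line 20b mice lay below all wild-type mice, so the groups overlap. The change was -0.33 (SE 0.10, adjusted p = 0.0314). The call was lost without line 20b mouse 4, 5 or 6 or wild-type mouse 1, 3, 4 or 5, with adjusted p from 0.0589 to 0.0781. It was also lost with quantile normalisation (adjusted p = 0.0541), a median shift (0.0768) and no filter (0.0507). At a second probe set (1427718_a_at) Mdm2 fell in line 20b by 0.35 (SE 0.09, adjusted p = 0.0127), and this call held whichever mouse was left out. That probe set was also lower in line 20b than in line 41 by 0.56 (SE 0.09, adjusted p = 0.00169), with no overlap (11.51 to 12.00 against 12.10 to 12.55). Line 41 itself was not called there, at 0.21 (adjusted p = 0.191).

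Clcn1-null mice had Mdm2 values of 10.77, 10.53 and 11.17 against 11.67, 11.68 and 12.07 in BALB wild-type mice. The groups did not overlap, yet the change of -0.98 (SE 0.22) gave an adjusted p of 0.0701 in limma over all probe sets. Without Clcn1-null mouse 3 it was -1.16, with an adjusted p of 0.0252. The second probe set did not share it, at 0.05 (adjusted p = 0.923). In Mbnl1-null mice the change was -0.35 (adjusted p = 0.0885). A further probe set (1457929_at) was under an intensity of 32 in all 34 mice.

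Ccng1, a cyclin G that recruits a phosphatase to MDM2, fell in 3 of the 4 mutant groups at its leading probe set (1420827_a_at). Its lowest, median and highest values were 14.26, 14.30 and 14.36 in line 20b and 14.16, 14.21 and 14.33 in line 41. Wild-type mice had 14.45, 14.51 and 14.68. Both lines lay wholly below wild type. The falls were small: 0.24 in line 20b (SE 0.04, adjusted p = 0.000435) and 0.32 in line 41 (SE 0.04, adjusted p = 0.0001), and both calls held whichever mouse was left out. Clcn1-null mice had 14.02, 13.98 and 14.42 against 14.98, 15.06 and 14.94, with no overlap and a change of -0.85 (SE 0.14, adjusted p = 0.0347). That call was lost in most fits with 1 mouse fewer: without Clcn1-null mouse 1 or 2, or without wild-type mouse 1, 2 or 3, the adjusted p was 0.0852 to 0.16, and with quantile normalisation it was 0.0607. A second probe set (1450017_at) fell in Clcn1-null mice by 1.23 (SE 0.15, adjusted p = 0.0164) and in line 20b by 0.21 (adjusted p = 0.0436), while the third (1450016_at) was called in no group. The calls at 1450017_at were kept in 1 of 6 fits with a mouse left out in Clcn1-null mice (adjusted p up to 0.0961) and in 6 of 18 in line 20b (up to 0.0984). In Mbnl1-null mice Ccng1 changed by -0.07 (adjusted p = 0.576).

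Sesn1, which encodes sestrin 1, a brake on mTORC1 signalling, rose in line 20b and in Mbnl1-null muscle. At its leading probe set (1433711_s_at) the lowest, median and highest mice of line 20b had 12.44, 12.52 and 12.72. Wild-type mice had 11.70, 11.95 and 12.20, all below line 20b. The rise was 0.58 (SE 0.10, adjusted p = 0.000651) and was called whichever mouse was left out. Line 41 overlapped wild type (11.89, 12.08 and 12.54) and was not called, at 0.16 (adjusted p = 0.399). The difference between the lines was itself called, at 0.42 (SE 0.10, adjusted p = 0.021); without line 20b mouse 6 its adjusted p was 0.0518 and without line 41 mouse 2 it was 0.0551. The probe sets 1438931_s_at and 1454699_at were also called higher in line 20b (0.57 and 0.34) and higher in line 20b than in line 41 (0.72 and 0.44, both without overlap). The probe set 1444376_at was called in neither, at 0.11 and 0.08.

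Mbnl1-null mice had Sesn1 values of 9.37, 9.04, 9.10, 9.25 and 8.96. Wild-type mice had 9.22, 8.24, 8.61, 8.36 and 8.52. Wild-type mouse 1 lay within the null range, and 2 of the 5 null mice exceeded all wild-type mice. The change of 0.55 (SE 0.17) just passed, with an adjusted p of 0.0482. It did not pass without Mbnl1-null mouse 1, 2, 3 or 4 or wild-type mouse 2, 3, 4 or 5 (adjusted p 0.0615 to 0.113), and the probe sets 1438931_s_at and 1454699_at gave 0.53 and 0.60 with adjusted p of 0.142 and 0.0742. In Clcn1-null mice Sesn1 was not called, at 0.47 (adjusted p = 0.424).

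Gadd45a, which encodes a stress sensor that binds PCNA and stress kinases, rose in line 41. The lowest, median and highest values were 10.90, 11.96 and 13.23 there, 10.93, 11.47 and 11.92 in line 20b, and 10.86, 10.99 and 11.32 in wild-type mice. The line 41 mice were widely spread, and 5 of 6 lay above all wild-type mice. The change was 1.03 (SE 0.29, adjusted p = 0.0369). Leaving out line 41 mouse 1, 3 or 4, or wild-type mouse 1, 2, 3, 4 or 6, ended the call (changes of 0.79 to 1.02, adjusted p 0.0593 to 0.0768), as did testing without a filter (0.0643) and leaving out wild-type mice 1 and 2 together (0.108). Line 20b was not called, at 0.42 (adjusted p = 0.386), and the difference between the lines, -0.61, was not called either (adjusted p = 0.275). In Clcn1-null mice Gadd45a had values of 10.56, 9.62 and 8.34, all below the 11.60, 11.95 and 11.19 of BALB wild-type mice. That difference of -2.08 (SE 0.57) was not called (adjusted p = 0.12). In Mbnl1-null mice it was 11.24 in mouse 1 and 9.12 to 9.66 in the other 4, while wild-type mice had 8.999 to 9.59, with a change of 0.32 (adjusted p = 0.593).

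Perp, which encodes a membrane protein of desmosomes that also takes part in p53-dependent cell death, rose in Mbnl1-null muscle. Null mice had 8.65, 8.37, 8.78, 8.86 and 8.22. Wild-type mice had 8.04, 6.87, 7.21, 7.43 and 7.31, all below the null mice. The rise was 1.20 (SE 0.21, adjusted p = 0.00275), or 2.30-fold, and the call held whichever mouse was left out. Neither repeat line was called, at 0.06 (adjusted p = 0.904) in line 20b and 0.12 (adjusted p = 0.823) in line 41. In experiment 2 all mice but 1 Clcn1-null mouse, at 5.10, were under an intensity of 32.

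Btg2, an antiproliferative regulator of mRNA decay, was called in no group. Line 41 was the nearest, at -0.45 (SE 0.17, adjusted p = 0.106); without wild-type mouse 2 the change was -0.56 with an adjusted p of 0.0426, and without wild-type mouse 6 it was -0.55 with 0.0474. All 6 line 20b mice lay above all 6 line 41 mice for Btg2 (10.91 to 11.48 against 10.20 to 10.83), and this difference of 0.45 gave an adjusted p of 0.138. Trp53inp1, which encodes a p53-induced protein of nuclear bodies and autophagy, was called in no group either. It was higher in all 3 Clcn1-null mice (13.40, 12.87 and 12.67) than in BALB wild-type mice (11.70, 12.25 and 11.35), a difference of 1.22 (SE 0.30) with an adjusted p of 0.0899. In Mbnl1-null mice it was 0.90 (SE 0.34, adjusted p = 0.093), with 3 of 5 null mice above all wild-type mice; without Mbnl1-null mouse 5 it was 1.09 with an adjusted p of 0.0476. A second Trp53inp1 probe set (1416927_at) was under an intensity of 32 in all mice of experiment 2 and was called in no comparison.

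**Figure D3:**
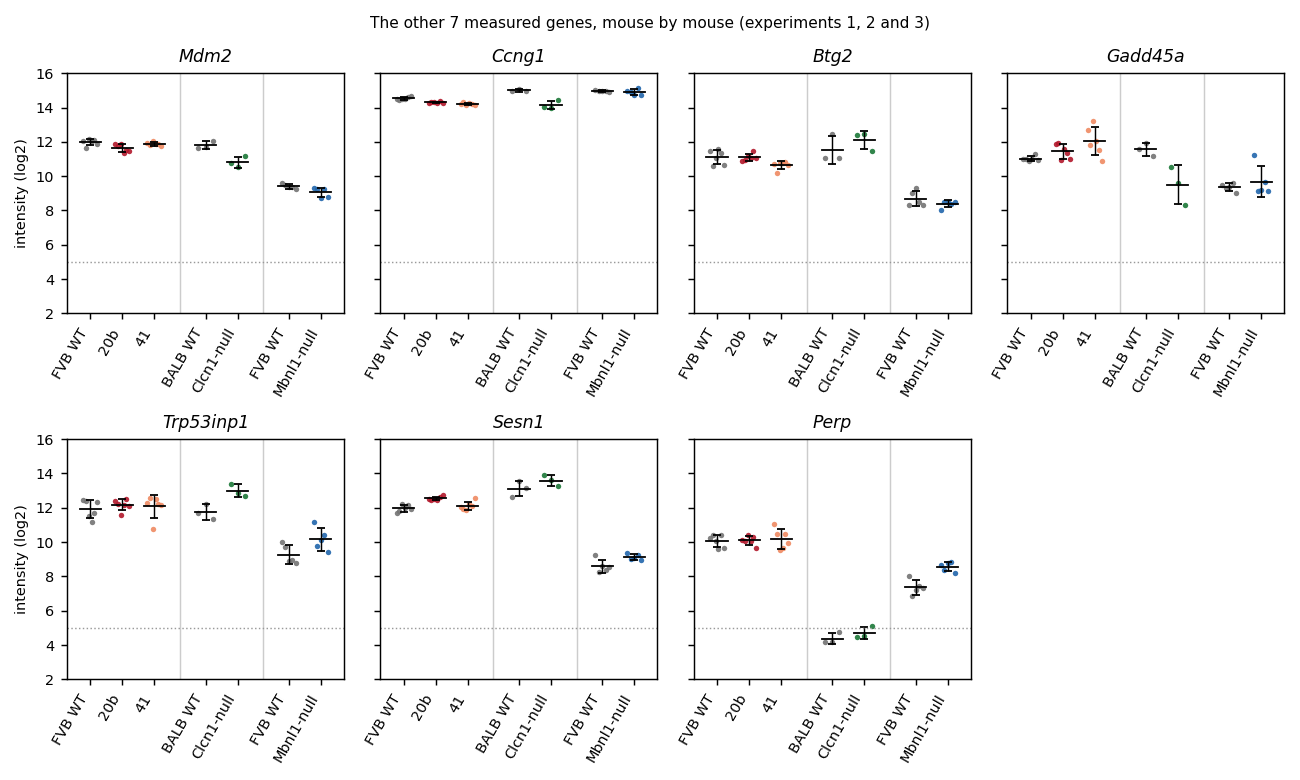
Log2 intensity of the 7 genes not picked by their values, at their leading probe sets, in each mouse (points), with group mean (bar) and SD (whisker), by group within experiments 1, 2 and 3 (separated by grey lines); the dotted line marks an intensity of 32. Perp lies clear of wild type in Mbnl1-null mice, Sesn1 lies clear of wild type in line 20b, and Perp is near or under the dotted line in experiment 2.

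Among 18 measured regulators and relatives of p53, the p53 family member Trp63 was the only one called higher. Trp63 rose by 0.91 in line 20b (SE 0.17, adjusted p = 0.000867) and by 1.10 in line 41 (SE 0.17, adjusted p = 0.000536). In Mbnl1-null mice it passed the filter only through the null mice (5.70 to 6.38), since the wild-type mean of 4.71 was under an intensity of 32 (4.07 to 5.07), so its call there rests on a group too dim to measure and gives no size. Hipk2, a kinase that activates p53, fell in line 20b by 0.77 and in Mbnl1-null mice by 0.66, and was lower in line 20b than in line 41 by 0.51 (adjusted p = 0.000192, 0.0078 and 0.0169). Ep300, an acetyltransferase that acts on p53, fell in line 20b by 0.36 and in Mbnl1-null mice by 0.44. That is 1 higher and 2 lower of 15 tested in line 20b (8.71% and 10.2% of all tested genes) and 1 and 0 in line 41 (3.74% and 5.19%). In Mbnl1-null mice it is 1 and 2 of 13 (8.01% and 8.11%), where the 1 is Trp63. By limma 0 of 15 were called either way in Clcn1-null mice (1.96% and 2.88%), where 3 were lower at an unadjusted p under 0.05. The list median was -0.06 in both lines, -0.08 in Mbnl1-null mice and -0.39 in Clcn1-null mice. Trp53 itself was not analysed here.

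Of 33 other measured p53 targets, Phlda3, an inhibitor of the kinase AKT, was the one called higher in line 20b, line 41 and Mbnl1-null mice. It rose by 1.25 in line 20b (SE 0.15, adjusted p = 1.4e-05), by 0.75 in line 41 (SE 0.15, adjusted p = 0.00516) and by 1.90 in Mbnl1-null mice (SE 0.29, adjusted p = 0.00142). In line 20b 1 of 27 was called higher and 6 lower, beside 8.71% and 10.2% of all tested genes. In line 41 it was 1 and 1 (3.74% and 5.19%), and in Mbnl1-null mice 1 and 3 of 24 (8.01% and 8.11%). In line 20b the largest falls were in Cd82, a tetraspanin (1.61, SE 0.23), Dram1, a lysosomal autophagy protein (1.33, SE 0.43), and Polk, a DNA polymerase that copies past lesions (0.71, SE 0.15). Polk and Cd82 also fell in Mbnl1-null mice, by 1.14 and 0.78. In Clcn1-null mice 3 of 29 were called higher and 2 lower (1.96% and 2.88% of all tested genes), led by Igfbp3, an IGF-binding protein (rise of 2.57, SE 0.46, adjusted p = 0.0426), and Tigar, which lowers glycolytic flux (fall of 0.98, SE 0.11, adjusted p = 0.0143). The median change of this list was -0.08 for line 20b, -0.10 for line 41, 0.11 for Clcn1-null mice and -0.05 for Mbnl1-null mice.

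The other inhibitors of cyclin-dependent kinases gave no common direction across the groups. Of 5 tested, 3 fell and 0 rose in line 20b, beside 10.2% and 8.71% of all tested genes (0 higher at an unadjusted p under 0.05). The falls were in Cdkn2c by 1.19 (adjusted p = 0.000148), Cdkn1b by 0.68 (adjusted p = 0.0221) and Cdkn1c by 0.46 (adjusted p = 0.00894). In line 41 Cdkn2c fell by 0.73 and Cdkn1c rose by 0.40, beside 5.19% of all tested genes called lower and 3.74% higher. The lines differed in Cdkn1c by -0.87 (adjusted p = 0.000305). In Mbnl1-null mice Cdkn2d rose by 0.36, the 1 called of 5, beside 8.01% of all tested genes called higher and 8.11% lower. In Clcn1-null mice 0 of 5 were called by limma (1.96% and 2.88%), with 1 higher at an unadjusted p under 0.05. Of the proliferation genes, limma called 0 higher and 1 lower of 17 in line 20b (8.71% and 10.2% of all tested genes). In line 41 it called 1 and 1 (3.74% and 5.19%). It called 0 and 1 of 12 in Clcn1-null mice (1.96% and 2.88%) and 1 and 0 of 9 in Mbnl1-null mice (8.01% and 8.11%). The genes called were Ccne2 (fall of 0.74 in line 20b and 2.07 in Clcn1-null mice), Top2a (rise of 0.54) and Ccnd1 (fall of 0.52) in line 41, and Rrm2 (rise of 0.73) in Mbnl1-null mice.

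Relatives of the listed genes by sequence gave a few further calls. Gadd45b rose in line 20b by 1.08 (SE 0.29, adjusted p = 0.0146) and in Mbnl1-null mice by 1.39 (SE 0.30, adjusted p = 0.00924), and Gadd45a was called in neither. Sesn3 and Ccng2 rose in Mbnl1-null mice by 0.95 and 0.89, and Trp53inp2 fell there by 0.48 and in line 20b by 0.31. Btg1 fell by 0.49 in line 20b and by 0.53 in line 41. The list had 1 higher and 2 lower of 12 tested in line 20b (8.71% and 10.2% of all tested genes). In line 41 it had 0 and 1 (3.74% and 5.19%), with 0 higher at an unadjusted p under 0.05 in limma. It had 0 either way in Clcn1-null mice (1.96% and 2.88%), with 1 lower at an unadjusted p under 0.05. In Mbnl1-null mice it had 3 and 1 of 11 (8.01% and 8.11%). No gene of the BCL-2 family was called by limma in any mutant group, with 11 genes tested for each line, 13 for the Clcn1-null and 7 for the Mbnl1-null comparison. The shares of all tested genes just given for each group belong beside these counts too. At an unadjusted p under 0.05 there were 3 higher in Clcn1-null mice and 0 in the other groups.

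None of the tested genes on a list of ectodysplasin and receptor signalling was called by limma. Besides Eda, Traf6, Map3k14, Nfkb2 and Relb, the list held Edar, a different ectodysplasin receptor, and Edaradd, the adaptor of Edar. Edar was too dim to test, and Edaradd was tested only in experiment 2. Eda, which encodes ectodysplasin, was 8.98 to 9.53 in line 20b, 8.36 to 9.59 in line 41 and 8.77 to 9.15 in wild-type mice, with changes of 0.18 (adjusted p = 0.471) and 0.04 (adjusted p = 0.909). In experiment 3 Eda was under an intensity of 32 in all 10 mice, and 0 of the 7 measured genes were bright enough to be tested. Of the 5 tested in each of experiments 1 and 2, 0 were called either way, and 0 had an unadjusted p under 0.05. Of all tested genes, 8.71% were called higher and 10.2% lower in line 20b. The shares were 3.74% and 5.19% in line 41 and 1.96% and 2.88% in Clcn1-null mice. Which splice forms of Eda the probe set detects is not known here.

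**Figure D4:**
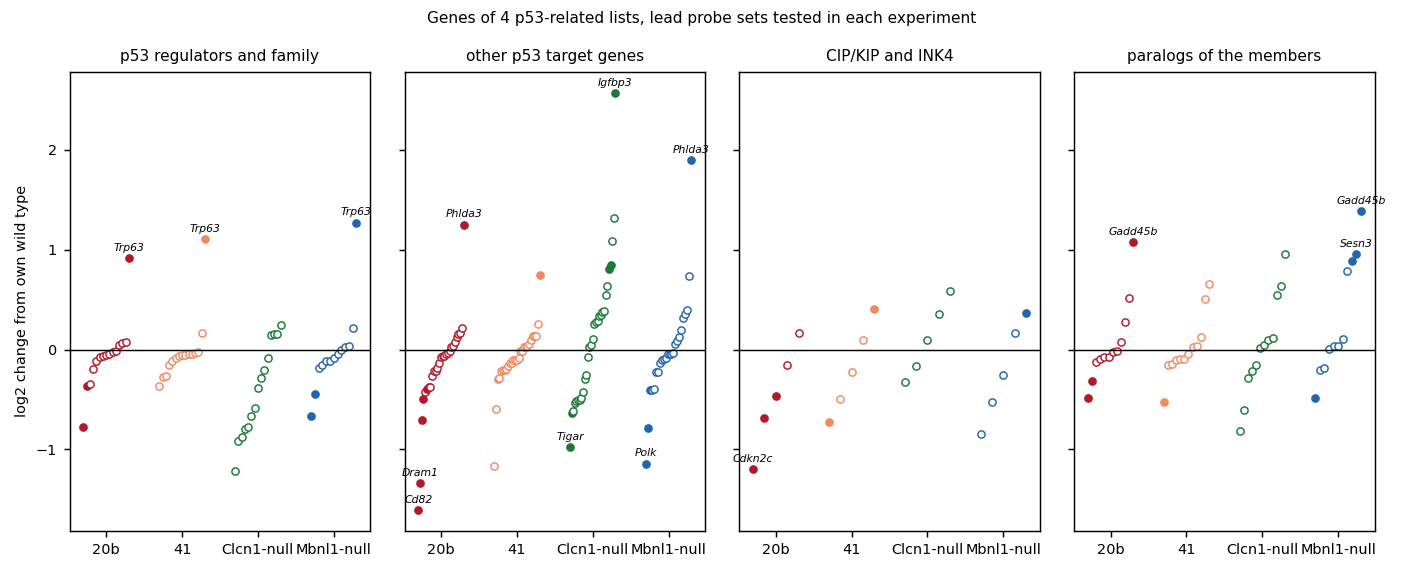
Log2 change from the wild type of the same experiment for each tested gene of 4 lists (p53 regulators and family, other p53 targets, CDK inhibitors of the CIP/KIP and INK4 families, and paralogs of the listed genes), ordered by size within each of the 4 mutant groups. Filled points passed an adjusted p of 0.05, and those with a change of at least 0.9 are named. Phlda3 is filled and above 0 in line 20b, line 41 and Mbnl1-null mice, as is Trp63, whose Mbnl1-null point is set against wild-type mice with a mean under an intensity of 32.

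Some denervation and cell type markers moved in the same groups. The shares of all tested genes called higher and lower were 8.71% and 10.2% in line 20b and 3.74% and 5.19% in line 41. They were 1.96% and 2.88% in Clcn1-null mice and 8.01% and 8.11% in Mbnl1-null mice, and belong beside the counts below. Ncam1, an adhesion molecule of denervated fibres, rose by 1.14 in line 20b, 0.76 in line 41 and 1.60 in Mbnl1-null mice. Its list joins denervation genes with genes of the ATF4 stress pathway. Of this list 3 were called higher and 1 lower of 13 tested in line 20b. In line 41 it was 3 and 0, and in Mbnl1-null mice 1 and 1 of 10. Ddit3 (0.53) and Asns (-1.71) in line 20b and Atf4 (-0.375) in Mbnl1-null mice belong to the ATF4 part. Asns was under an intensity of 32 in every line 20b mouse (4.32 to 4.62), against 4.56 to 8.46 in wild-type mice. Its call there rests on a group too dim to measure and gives no size. In Clcn1-null mice 1 of 13 was called higher, Asns (3.09). Of the denervation genes, Chrna1 was also called higher in line 20b (0.70) and line 41 (0.59), and Musk in line 41 (0.55). Myog, Runx1, Trim63 and Fbxo32 were called in no group, and Runx1 was too dim to test in Mbnl1-null mice. Myh3, the embryonic myosin of regenerating fibres, rose in line 20b (1.06), line 41 (1.29), Clcn1-null (3.13) and Mbnl1-null mice (1.89). It was the 1 called of 6 regenerating fibre markers tested in each line and of 5 in Clcn1-null mice, where Myod1 and Myog differed by -0.82 and -0.84 without a call; in Mbnl1-null mice Myh8 was called too, of 5. The 6 markers summed to 4605 to 6920 in line 20b, 3841 to 9862 in line 41 and 2209 to 7690 in their wild type, which overlap. They summed to 1449 to 2255 in Mbnl1-null mice against 972.3 to 1428, and to 11680 to 17970 in Clcn1-null mice against 3087 to 3298, both without overlap. Pax7 was under an intensity of 32 in those experiments. A sum of intensities is weighted to its brightest gene. In Clcn1-null mice that was Myh3 (log2 13.36 to 13.94 against 10.32 to 10.93), so the sum there largely repeats the Myh3 call. Of the macrophage markers, Cd68 rose in line 41 (1.46), Clcn1-null (3.25) and Mbnl1-null mice (1.91). It was the only marker called, of 5 tested in line 41 and 6 in Clcn1-null and in Mbnl1-null mice. In line 20b 0 of 5 were called. The 8 markers summed to 4504 to 8853 in Mbnl1-null mice against 3122 to 5381, with the highest sum in mouse 1. In Clcn1-null mice they summed to 16020 to 26550 against 8881 to 12010, without overlap. The brightest of them there was Lyz2 (log2 13.26 to 14.01 against 12.05 to 12.69), which limma did not call (adjusted p = 0.0712). Itgam was under an intensity of 32 in all groups. All 5 endothelial markers fell in line 20b and 3 of 5 in line 41, with sums of 4548 to 6286 and 5360 to 7180 against 7448 to 10050 in wild-type mice. Adipocyte markers also separated line 20b: Adipoq, Cidec and Fabp4 fell there, all 3 tested, and the sums of 4 markers were 22180 to 28330 against 29820 to 92880 in wild-type mice. In Clcn1-null mice the same 3 rose, with sums of 92100 to 113500 against 40930 to 49430. The Schwann cell markers Mbp and Mal fell in line 20b, and Mal in line 41; sums of 3 markers were 2204 to 4039 in line 20b and 1088 to 5690 in line 41, against 4125 to 8154. The part of these cells in the differences above was not tested.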

How the data were processed

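Quadriceps RNA of 34 mice was measured on 58 Affymetrix arrays. As deposited, each probe set has a linear intensity; per the submitters' processing notes GCRMA was used to make it, with a version and settings not given in the sources used here. Per the labels' protocols, biotin-labelled cRNA was made from total RNA. Median array intensities were 398.4 to 437.8 on the first array type of experiment 1 and 30.2 to 34.39 on its second. They were 298.5 to 317.3 and 22.35 to 27.91 in experiment 2. In experiment 3, whose single array type holds the probe sets of both, they were 9.559 to 11.62. Part of a gap between array types can come from their probe sets. Levels differed between experiments, so no test crosses them. Intensities were put on the log2 scale and the 2 array types of a mouse joined.

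Of 45037 probe sets, 34945 had 1 gene symbol in the platform annotation, 932 had several and 9160 none. A gene's leading probe set has the highest mean over the 3 experiments. Probe sets were tested where they reached a log2 of 5 in as many mice as the smallest group (27330, 25944 and 16229). Separate fits per experiment used limma (version 3.58.1; R version 4.3.3), with 1 mean per group and eBayes with a trend, two-sided, with Benjamini-Hochberg adjustment over all probe sets tested in it; a call is an adjusted p under 0.05. Counts of called genes use leading probe sets. The fits were tested on simulated data.

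The genes and lists were chosen with earlier results of these data known. Named were all listed genes, up to 4 called genes of a list by size of change, regulators, ligands and receptors, and the 5 genes most like Cdkn1a and Eda2r. Alternatives were 2 scalings, 2 filters, 1 probe set per gene, a floor, 2 eBayes settings, array weights, a stricter threshold, the mouse number as a block and leaving out mice. P-values set a group difference against the spread between these mice, which eBayes moderates with a trend over all probe sets tested.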

Additional observations from a re-analysis of the deposited data

Results flagged for a closer look

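Single mice stood apart from their group for 4 of the 9 measured genes, by a test of the gap to the next mouse against the range of the group; it was applied to 45 groups of 5 or 6 mice, and chance alone marks about 1 in 20. Cdkn1a was 12.857 in line 20b mouse 3 (next 11.342) and 11.432 in Mbnl1-null mouse 1 (next 10.244). Gadd45a was also highest in Mbnl1-null mouse 1, at 11.243 (next 9.659), and in wild-type mouse 5 of experiment 1, at 11.318 (next 11.016). Btg2 was low in line 41 mouse 2, at 10.199 (next 10.671), and Trp53inp1 was low in line 41 mouse 3, at 10.738 (next 12.149). The mice that stood high for Cdkn1a did not stand high for every gene: line 20b mouse 3 had the lowest Gadd45a (10.930) and Trp53inp1 (11.605) of its group, and Mbnl1-null mouse 1 had the lowest Eda2r (9.726) and Btg2 (8.054) of its group.

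The effects of the 2 repeat lines differed for Sesn1, which was higher in line 20b than in line 41 by 0.422 in a direct limma test (adjusted p = 0.021).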

How the results depend on the processing

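Counts of called genes among the 7 not picked by their values moved as follows. In line 20b, 1 instead of 2 was called lower with quantile normalisation, a median shift, no filter or an adjusted p under 0.01 (1 to 2 with a mouse left out). In line 41, 0 instead of 1 was called higher with no filter, without wild-type mice 1 and 2, or at 0.01 (0 to 1 with a mouse left out), and 2 instead of 1 lower with the replicate block (1 to 2 with a mouse left out). Between the lines, 0 instead of 1 was called higher at 0.01 (0 to 1 with a mouse left out). In Clcn1-null mice 1 was called higher and 3 lower with array weights, and 0 lower with quantile normalisation, no filter, the replicate block or at 0.01 (0 to 2 with a mouse left out). In Mbnl1-null mice 1 instead of 2 was called higher with a median shift, no filter, eBayes without a trend or at 0.01 (1 to 3 with a mouse left out). There 3 were called higher with array weights or the replicate block, as limma then also called Trp53inp1 (adjusted p = 0.0248 and 0.018). With the replicate block 1 instead of 0 was called lower (Mdm2, adjusted p = 0.0359 in limma). In Clcn1-null mice the Eda2r difference turned to 0.35 with array weights, and ran from -0.59 to 0.43 with a mouse left out; that of Cdkn1a ran from -0.17 to 0.37. With array weights 3889 probe sets were called higher and 3504 lower in Clcn1-null mice, against 445 and 646 without; with the replicate block it was 33 and 77, with wild-type mouse 1 left out 7 and 28, with wild-type mouse 3 left out 11 and 29, and with Clcn1-null mouse 3 left out 1084 and 1189. The cause was not tested, apart from the stricter threshold and the smaller groups. Same-numbered mice of different groups deviated together with correlations of -0.144 to 0.314 in experiment 1, -0.153 to 0.0945 in experiment 2 and 0.0229 to 0.398 in experiment 3 (4 of 5 pairs over 0.1). Mice of other numbers gave -0.3 to 0.214, -0.16 to 0.15 and -0.365 to 0.429. The numbers were not taken as pairs in the main fits. In Mbnl1-null mice 1449 probe sets were called higher and 1861 lower with the replicate block, against 1181 and 1447 without. In line 20b, 2016 probe sets were called higher and 2614 lower, against 2450 and 2207 with quantile normalisation. Probe sets under an intensity of 32, such as Perp in experiment 2, give no level.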
